A study of Bos taurus with 36 samples.

Results

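The genes described here are the 10 core members of the insulin-like growth factor (IGF) system: the ligands IGF1 and IGF2, the receptors IGF1R and IGF2R, and the binding proteins IGFBP1 to IGFBP6. They were chosen by symbol, as the rows of the count table whose Entrez gene carries that symbol, and all 10 of them were found among the 35092 genes of the table. Their levels were followed in 3 fetal organs and in maternal blood, and along the weight of the fetus.

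Heart, gonads and liver were taken from 10 male bovine fetuses at Day 42 of gestation and blood was drawn from the recipient heifers, and RNA of each was sequenced. In the ET_D7 group a Day 7 embryo had been placed in a recipient on Day 7 of the cycle, and in the ET_D9 group an embryo of the same age had been placed on Day 9. Each group gave 5 fetuses, which are numbered here by weight: fetuses 1 to 5 (ET_D7) weighed 1.253 to 1.37 g and fetuses 6 to 10 (ET_D9) weighed 1.396 to 1.69 g. Fetal weight and transfer group therefore cannot be told apart. There were 9 heart libraries (none of fetus 7), 9 gonad libraries (none of fetus 2), 8 liver libraries (none of fetuses 6 and 7) and 10 blood libraries, each library of a tissue coming from a different animal. The breed and the origin of the embryos are not given in the sources used here.

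IGF1 and IGF2 are secreted peptides that drive growth of the fetus, IGF2 being the main ligand of prenatal life and IGF1 taking over its role after birth under growth hormone. Both signal through IGF1R, a receptor tyrosine kinase. IGF2R binds IGF2 and carries it to the lysosome, and so removes it. The IGFBPs hold the ligands in the circulation and around cells, and proteases such as PAPPA and PAPPA2 set the ligands free by cutting them.

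The total count per library lay between 18231089 and 40812354 over the 4 tissues. In the heart 17.1% to 57.3% of counts fell on mitochondrial genes, with the highest share in fetus 2 and the lowest in fetus 10, against 16.3% to 36.8% in the liver and 3.31% to 7.23% in the gonad libraries. Counts were scaled with edgeR's TMM method, and levels are given as CPM (counts per 1000000 of the scaled library). Blood was scaled apart from the organs because another kit was used for it, so its levels stand beside those of the organs without a test. Exon lengths of the build were not at hand, so levels were not compared between genes.

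The tissue labels were checked with marker lists. The 8 heart muscle markers summed to 34784 to 50138 CPM in the heart, and the 8 liver parenchyma markers to 31334 to 58740 CPM in the liver. In the libraries labelled gonads (fetal testicle) several markers of a testis were low: the median level of GATA4 was 0.0540 CPM, of NR5A1 0.836 CPM and of AMH 1.67 CPM, and the germ cell genes DAZL and DPPA3 had a median of 0. Others of the same lists were higher, with medians of 28.0 CPM for KIT, 27.6 for PTGDS, 6.23 for STAR, 6.03 for SOX8 and 3.01 for SOX9. By list, 5 of 8 Sertoli, 1 of 7 Leydig and 2 of 8 germ cell markers had a median of at least 1 CPM in the libraries labelled gonads, with sums of 36.1 to 65.8, 7.50 to 15.6 and 21.9 to 36.7 CPM. In the heart these lists summed to 255 to 475, 10.3 to 25.1 and 8.02 to 14.6 CPM. In the liver they summed to 59.6 to 125, 67.8 to 160 and 7.36 to 66.3 CPM. Most of the Sertoli sum in these organs came from GATA4, which is also on the heart muscle list, and PTGDS. Their medians were 314 and 62.0 CPM in the heart and 57.5 and 26.5 CPM in the liver. Every other Sertoli marker had a median of at most 4.77 CPM in the heart and 1.97 CPM in the liver. All 10 kidney and mesonephros markers had a median of at least 1 CPM in the libraries labelled gonads, with PAX2 at 107 CPM and WT1 at 127 CPM. There the list summed to 483 to 652 CPM, against 17.5 to 27.6 CPM in the heart and 120 to 280 CPM in the liver. The libraries labelled gonads are called gonad-labelled below. Heart muscle markers were also raised in the liver libraries of fetus 3 (2046 CPM), fetus 4 (741 CPM) and fetus 5 (447 CPM), against 53.1 to 178 CPM in the other livers. In maternal blood they summed to 3574 CPM beside fetus 2 and 1203 CPM beside fetus 5, and to at most 19.1 CPM elsewhere.

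IGF2 was at 1292 CPM or above in every fetal library, and lowest in the gonad-labelled ones. It spanned 3082 to 6077 CPM in the heart (median 5447), 2936 to 5384 CPM in the liver (median 3733) and 1292 to 2437 CPM in the gonad-labelled libraries (median 1355). With TMM the heart and gonad-labelled ranges did not meet, nor did those of the liver and the gonad-labelled libraries, while heart and liver overlapped. On the log2 scale the heart lay 1.72 above the gonad-labelled libraries (SE, the standard error, 0.18; adjusted p = 4.68e-09 by edgeR's quasi-likelihood test with Benjamini-Hochberg adjustment), and the gonad-labelled libraries differed from the liver by -1.30 (SE 0.18, adjusted p = 4.39e-07, edgeR), which was -0.27 (adjusted p = 0.148) when scaled to the library total. In bulk RNA such a difference can come from fewer cells of a type or from less RNA per cell, which cannot be told apart. The heart exceeded the liver by 0.42 on the log2 scale (SE 0.18, adjusted p = 0.0470, edgeR), but with the fetus as a replicate block the adjusted p became 0.0658, and with size factors in place of TMM the difference was 0.25 (adjusted p = 0.239). That call was also lost when any of fetuses 2, 4, 5, 6, 8 or 9 was left out, with adjusted p up to 0.134 without fetus 4. The lowest hearts were those of fetus 3 (3082 CPM) and fetus 10 (3571 CPM), which also had the lowest heart muscle marker sums (34784 and 35325 CPM); the part of tissue makeup in these levels was not tested.

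IGF1 was at 22.2 CPM or below in every library, and highest in the liver. Its CPM ranged from 6.87 to 22.2 in the liver (median 9.17), from 2.87 to 12.1 in the heart (median 3.51) and from 2.83 to 6.28 in the gonad-labelled libraries (median 5.13). With TMM every liver exceeded every gonad-labelled library. The log2 difference of the latter from the liver was -1.34 (SE 0.32, adjusted p = 0.000641, edgeR), or -0.27 (adjusted p = 0.450) when scaled to the library total. The heart was lower than the liver (a log2 difference of -1.03, SE 0.32, adjusted p = 0.00730, edgeR). The highest livers were those of fetuses 3 and 4, at 17.5 and 22.2 CPM. They are among the 3 livers with raised heart muscle markers, and the remaining 1, of fetus 5, had the lowest IGF1. Without fetus 4 the difference was -0.74 (adjusted p = 0.0535, edgeR), and without the livers of fetuses 3, 4 and 5 it was -0.71 (adjusted p = 0.0694). Heart and gonad-labelled libraries differed by 0.31 (SE 0.31, adjusted p = 0.427), which is within the spread, and the sign turned (-0.05) without fetus 3.

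In maternal blood IGF2 had 1.91 to 12.3 CPM (median 3.89) and IGF1 at most 1.02 CPM, with 0 counts in 2 of 10 libraries. Those 2, beside fetuses 4 and 6, stand against 28 counts at most elsewhere. The 5 blood libraries of the ET_D7 group included the 4 highest IGF1 values (0.416 to 1.02 CPM) and a 0.

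Of the receptors, IGF1R was higher in the liver than in either other organ with TMM, and higher in the gonad-labelled libraries than in the liver when scaled to the library total (0.41, adjusted p = 0.0129, edgeR). Its levels were 25.2 to 39.0 CPM in the liver (median 27.8), 18.6 to 23.1 CPM in the heart (median 21.1) and 16.3 to 25.6 CPM in the gonad-labelled libraries (median 18.6). With TMM all livers exceeded all hearts, by a log2 difference of heart over liver of -0.53 (SE 0.11, adjusted p = 0.000153, edgeR), and the gonad-labelled libraries differed from the liver by -0.63 (SE 0.11, adjusted p = 1.09e-05, edgeR). Heart and gonad-labelled libraries were within 0.11 of each other (SE 0.11, adjusted p = 0.425). Blood held 32.8 to 84.3 CPM of IGF1R (median 48.7), with the highest value beside fetus 7.

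IGF2R, the clearing receptor, differed little between organs with TMM. Its medians were 244 CPM in the liver, 202 CPM in the gonad-labelled libraries and 198 CPM in the heart, and the ranges of 170 to 337, 177 to 319 and 125 to 277 CPM overlapped throughout. None of its 3 organ differences passed the test: heart over liver was -0.33 (SE 0.16, adjusted p = 0.0851, edgeR), heart over gonad-labelled -0.19 (adjusted p = 0.336) and gonad-labelled over liver -0.14 (adjusted p = 0.465). The heart to liver difference did pass with size factors (-0.49, adjusted p = 0.0106, edgeR) and without the livers of fetuses 3, 4 and 5 (-0.44, adjusted p = 0.0435). In blood IGF2R had 94.0 to 130 CPM, with a coefficient of variation over the libraries of 8.71%.

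IGFBP1, a binding protein whose production by hepatocytes is held down by insulin, was found almost solely in the liver among the organs. The liver libraries held 180 to 305 CPM (median 261, 253 ± 39.4, SD, n = 8). All 9 hearts together held 6 counts, with 0 in 7 of them, and all 9 gonad-labelled libraries held 8 counts, with 0 in 6. Every count above 0 among these was even, so the intervals below take 2 counts as 1 event, and they cover counting error only. From the summed counts the liver level was 9088-fold that of the heart (95% exact interval 3109 to 44074) and 15329-fold that of the gonad-labelled libraries (5986 to 56266). With so few counts single fetuses moved these ratios, to 22828-fold without fetus 8 (4097 to 901706) over the heart and to 27831-fold without fetus 9 (7703 to 229825) over the gonad-labelled libraries. The edgeR test called the liver higher in both (adjusted p = 1.08e-20 and 2.60e-21). Each blood library held 12 to 50 counts of IGFBP1, 0.292 to 1.68 CPM.

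IGFBP3, which carries most of the circulating ligand in later life, was also highest in the liver. Levels were 54.7 to 119 CPM in the liver (median 62.7), 37.8 to 59.2 CPM in the heart (median 47.5) and 11.97 to 23.8 CPM in the gonad-labelled libraries (median 18.5). With TMM the gonad-labelled libraries lay below every library of the other organs. The log2 differences were -2.0 for gonad-labelled over liver (SE 0.16, adjusted p = 5.70e-12, edgeR), 1.39 for heart over gonad-labelled (SE 0.15, adjusted p = 9.11e-09, and 0.31 with adjusted p = 0.0603 when scaled to the library total) and -0.61 for heart over liver (SE 0.15, adjusted p = 0.00120). In the annotation of the later assembly ARS-UCD2.0, IGFBP3 and IGFBP1 are neighbours on chromosome 4, yet IGFBP3 was at 37.8 CPM or more in the hearts, where IGFBP1 was at or near 0.

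IGFBP2, IGFBP5 and IGFBP6 formed the opposite group, low in the liver and high in the other organs. IGFBP5, a matrix-bound member, had 308 to 619 CPM in the heart (median 396), 315 to 593 CPM in the gonad-labelled libraries (median 355) and 8.89 to 28.2 CPM in the liver (median 17.8). Heart and gonad-labelled libraries were 4.53 and 4.36 above the liver on the log2 scale (SEs 0.23 and 0.23, adjusted p = 6.94e-16 and 1.22e-15, edgeR) and differed from each other by 0.17 (adjusted p = 0.492). These are the largest organ differences among the members after those of IGFBP1.

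IGFBP2, a major binding protein of fetal tissues, had 60.2 to 99.3 CPM in the gonad-labelled libraries (median 71.3), 18.4 to 84.0 CPM in the heart (median 35.5) and 4.09 to 9.36 CPM in the liver (median 6.67). The hearts of fetuses 3 and 10 stood apart at 73.8 and 84.0 CPM, the other hearts staying at or below 38.7 CPM. The heart was lower than the gonad-labelled libraries (-0.77, SE 0.21, adjusted p = 0.00350, edgeR), and both exceeded the liver (2.71 and 3.47, adjusted p = 7.13e-11 and 6.37e-13). IGFBP2 and IGFBP5 are neighbours on chromosome 2 in ARS-UCD2.0. Both were low in the liver, but the heart with the most IGFBP2, of fetus 10, had 312 CPM of IGFBP5, and the heart with the most IGFBP5, of fetus 2, had the least IGFBP2 (18.4 CPM). The heart of fetus 3 went the other way, being next to the highest for both (73.8 and 552 CPM). The hearts of fetuses 3 and 10 also had the lowest heart muscle marker sums (34784 and 35325 CPM), whose part was not tested.

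IGFBP6, which prefers IGF2 over IGF1, was highest in the gonad-labelled libraries, at 24.8 to 64.2 CPM (median 34.0). The heart held 11.8 to 24.1 CPM (median 18.2) and the liver 1.21 to 3.47 CPM (median 1.95), so that no library of 1 organ reached the range of the next. Heart over gonad-labelled was -1.0 (SE 0.20, adjusted p = 0.000106, edgeR), heart over liver 3.14 (adjusted p = 1.19e-12) and gonad-labelled over liver 4.14 (adjusted p = 6.38e-15). IGFBP4, an inhibitory binding protein cut by PAPPA, led in the heart with 117 to 408 CPM (median 275), against 79.0 to 172 CPM in the liver (median 137) and 96.0 to 166 CPM in the gonad-labelled libraries (median 108). The heart exceeded the gonad-labelled libraries by 1.12 (SE 0.19, adjusted p = 1.12e-05, edgeR), a difference that was -0.04 (adjusted p = 0.825) when scaled to the library total, and the liver by 0.95 (SE 0.19, adjusted p = 0.000114), although its ranges overlapped with both, and the last 2 differed by -0.17 (adjusted p = 0.440).

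In maternal blood IGFBP4 was the binding protein with the most counts, 524 to 1518 per library, at 18.2 to 57.1 CPM (median 26.7). IGFBP6 had 0 counts in 4 libraries and at most 1.43 CPM. IGFBP3 stayed between 0.0671 and 0.803 CPM. IGFBP2 had 8 counts in all 10 blood libraries together, all of them in the 2 libraries beside fetuses 2 and 5. IGFBP5 was also highest in those 2, at 3.28 and 1.95 CPM against at most 0.948 CPM elsewhere, and H19, an imprinted RNA gene near IGF2 named here after its values were seen, had 33.3 CPM beside fetus 2, its maximum, but 5.85 CPM beside fetus 5 against 10.9 CPM beside fetus 1. IGF2 had 5.55 and 5.92 CPM beside fetuses 2 and 5, below the 6.77 and 12.3 CPM beside fetuses 3 and 7. The blood libraries beside fetuses 2 and 5 are those with 3574 and 1203 CPM of heart muscle markers; the part of those markers' source in the IGFBP values was not tested.

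**Figure D1:**
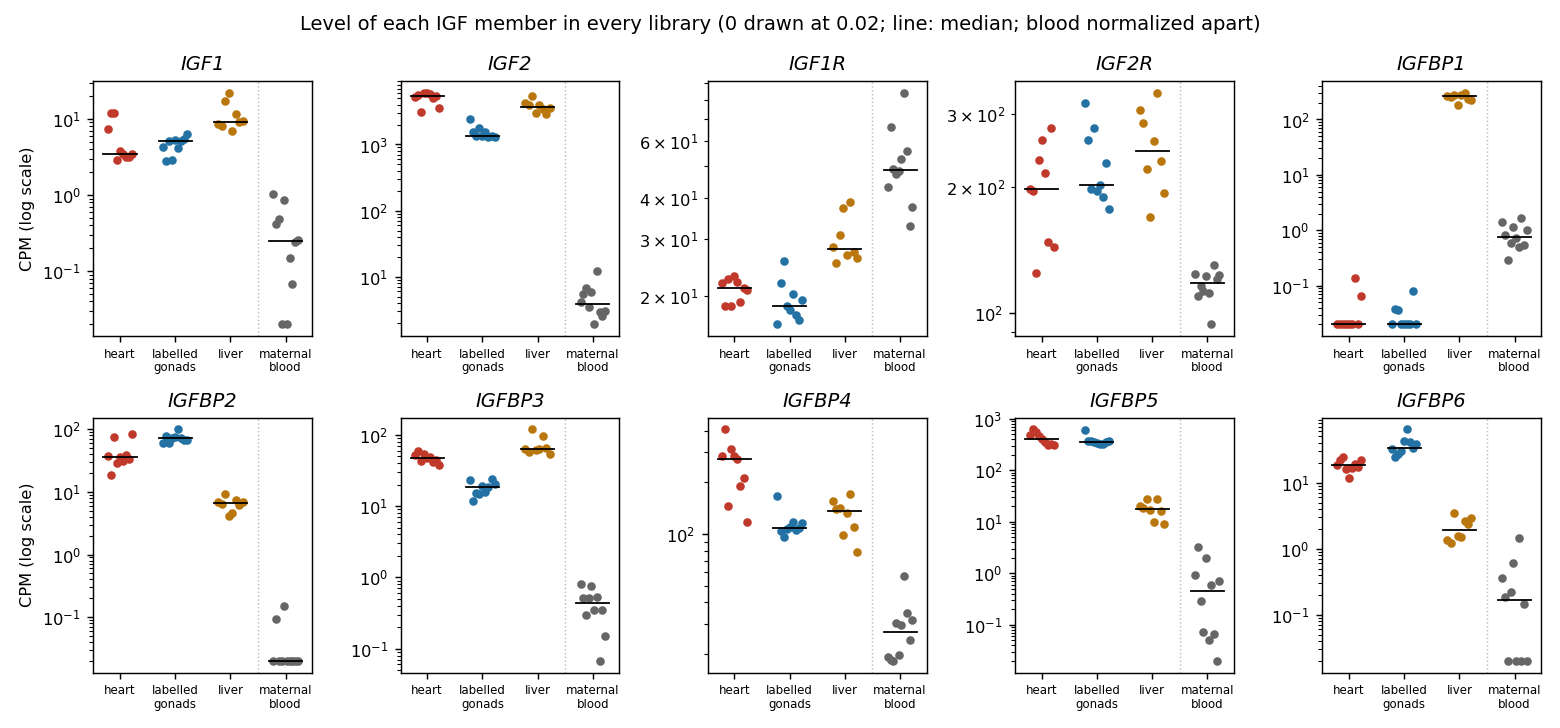
Level of each of the 10 members in every library, in CPM on a log scale, for the heart (9 points), the libraries labelled gonads (9), the liver (8) and maternal blood (10, scaled apart), with points ordered by fetus and a black line at the median. IGFBP1 is near 0 outside the liver, IGFBP2, IGFBP5 and IGFBP6 are lowest in the liver among the organs, and the IGF2R ranges of the organs overlap.

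**Figure D2:**
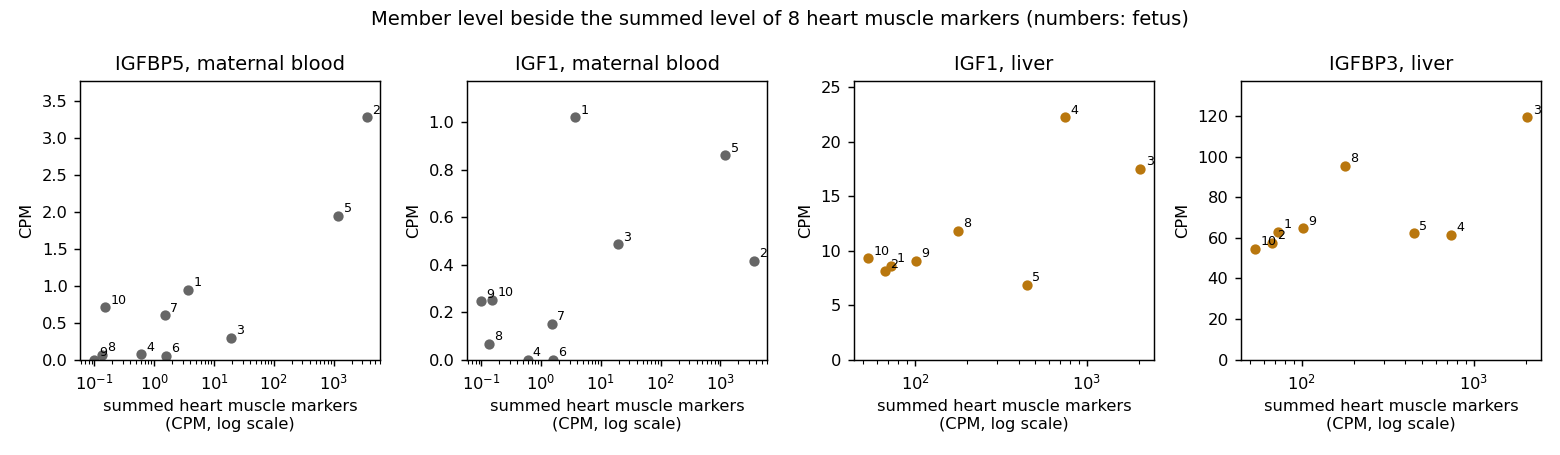
Level of IGFBP5 and IGF1 in maternal blood and of IGF1 and IGFBP3 in the liver (CPM) against the summed level of the 8 heart muscle markers in the same library (CPM, log scale), with the fetus number beside each point. Blood beside fetuses 2 and 5 has the highest IGFBP5 (3.28 and 1.95 CPM), and the livers of fetuses 3 and 4 have the highest IGF1 (17.5 and 22.2 CPM).

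The 3 organ contrasts were fitted together over 25095 genes with at least 1 count. Between heart and gonad-labelled libraries 5 of the 10 members passed an adjusted p of 0.05, against 46.6% of all genes tested. The 3 higher in the heart were IGF2, IGFBP3 and IGFBP4 (23.5% of all genes were called higher) and the 2 lower were IGFBP2 and IGFBP6 (23.1% were called lower). Between heart and liver 9 of 10 passed, against 58.6% of all genes: IGF2, IGFBP2, IGFBP4, IGFBP5 and IGFBP6 were higher in the heart (27.9% of genes) and IGF1, IGF1R, IGFBP1 and IGFBP3 lower (30.7%). Between gonad-labelled libraries and liver 8 of 10 passed, against 64.4%: IGFBP2, IGFBP5 and IGFBP6 were higher (30.8% of genes) and IGF1, IGF2, IGF1R, IGFBP1 and IGFBP3 lower (33.6%). The members' median log2 difference was 0.24, 0.05 and -0.40 in these contrasts, beside -0.08, 0 and 0 over all genes. With TMM, ranges did not overlap for 3, 5 and 7 members, in the same order of contrasts, against 23.1%, 25.8% and 31.1% of the genes tested. Scaled to the library total, IGF2 spanned 2897 to 4643 CPM in the heart, 2085 to 3964 in the gonad-labelled libraries and 2111 to 3914 in the liver, so its ranges met. Those of IGF1 (gonad-labelled and liver), IGFBP3 (heart and gonad-labelled) and IGF1R (heart and liver) then met too. With an absolute log2 difference above 1 required as well, 3, 5 and 7 members were left, against 29.5%, 43.9% and 50.5% of all genes.

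The contrasts with the gonad-labelled libraries, which held the smallest mitochondrial share of the organs, depended on the scaling. Scaled to the library total instead of TMM, the median over all genes moved to -1.07 for heart over gonad-labelled and to 0.91 for gonad-labelled over liver, and the split of calls went from 5898 higher and 5788 lower to 2089 and 12672 in the former and from 7718 and 8435 to 11960 and 4810 in the latter. Under that scaling IGF2 was still higher in the heart than in the gonad-labelled libraries and IGFBP2 and IGFBP6 lower. IGFBP3 lost its call (0.31, adjusted p = 0.0603, edgeR) and IGFBP4 turned to -0.04 (adjusted p = 0.825), while IGF1, IGF1R, IGF2R and IGFBP5 came out lower in the heart (-0.75, -0.93, -1.28 and -0.91, adjusted p = 0.0379, 1.33e-06, 8.05e-08 and 8.85e-05). Of gonad-labelled libraries against liver, IGF1R, IGF2R and IGFBP4 turned to 0.41, 0.89 and 0.87 (adjusted p = 0.0129, 2.79e-05 and 4.10e-06, edgeR), and IGF1 and IGF2 lost their calls (both -0.27, adjusted p = 0.450 and 0.148). All 5 of these values lie below the moved median of 0.91, as with TMM all 5 lay below 0. The calls for IGFBP1, IGFBP2, IGFBP3, IGFBP5 and IGFBP6 against the liver kept their direction in both contrasts.

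**Figure D3:**
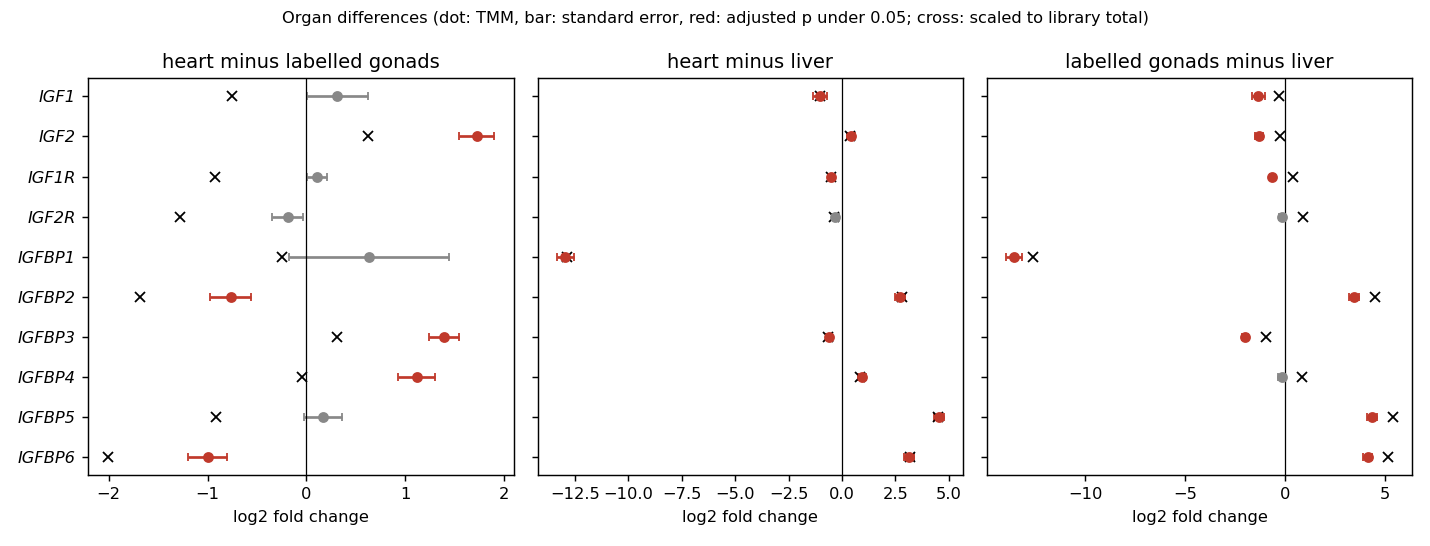
Log2 fold change of each member between organs with its standard error (dots, TMM; red where the adjusted p is under 0.05) and the same value scaled to the library total (crosses), with heart minus gonad-labelled on the left, heart minus liver in the middle and gonad-labelled minus liver on the right. Crosses sit near the dots for heart minus liver and are shifted in the other panels, and IGFBP1 lies far to the left in both contrasts with the liver.

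The relation to fetal weight was tested in each tissue alone, with a slope in log2 units per 0.1 g and with a spline of 3 degrees of freedom. Genes reaching 10 counts in 4 or more libraries were kept, which left 9 members in the heart and in the gonad-labelled libraries (without IGFBP1), 10 in the liver and 8 in blood (without IGFBP2 and IGFBP6). Because every ET_D9 fetus was heavier than every ET_D7 fetus, the test between the transfer groups reads the same contrast in another way.

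In the heart, IGFBP5 fell with fetal weight. Its levels in fetuses 1 to 5 were 484, 619, 552, 452 and 396 CPM, and in fetuses 6, 8, 9 and 10 they were 358, 308, 322 and 312 CPM. All 5 ET_D7 hearts exceeded all 4 ET_D9 hearts with TMM, but the groups met when scaled to the library total. The slope was -0.20 per 0.1 g (SE 0.05, adjusted p = 0.0479 by edgeR), and IGFBP5 was the only 1 of 9 members tested to pass, where 6.77% of the 16250 genes did and 1.54% did while falling. The call was marginal: it was lost without any single fetus other than fetus 3 (adjusted p 0.0548 to 0.354) and with the library total as scale (-0.06, adjusted p = 0.598), with TMM without the mitochondrial genes (-0.20, adjusted p = 0.0506) and without the filter on low counts (-0.20, adjusted p = 0.0582). DESeq2 called it and IGFBP4 (adjusted p = 0.00495 and 0.0395), where it called 18.9% of all genes. With the transfer group as a further term the slope was -0.09 (adjusted p = 0.733), and without fetuses 9 and 10 it was -0.30 (adjusted p = 0.427). The mitochondrial share of the hearts was 23.5% to 57.3% in ET_D7 and 17.1% to 39.0% in ET_D9, and its part in the slope was not tested beyond these scalings.

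Unadjusted, 4 of the 9 members had p under 0.05 in the heart, all with falling slopes, against 29.1% of all genes in either direction and 12.7% falling. Besides IGFBP5 these were IGF1, IGFBP3 and IGFBP4. IGF1 had 7.30, 12.1, 12.1, 2.87 and 3.81 CPM in fetuses 1 to 5 and 3.14 to 3.51 CPM in the 4 ET_D9 hearts, the high values being those of the 3 lightest fetuses. Its slope was -0.37 (SE 0.14, adjusted p = 0.119, edgeR). IGFBP4 had a slope of -0.24 (SE 0.09, adjusted p = 0.0998, edgeR), from 285, 408, 146, 312 and 285 CPM in ET_D7 and 275, 191, 213 and 117 CPM in ET_D9. IGFBP3 had -0.10 (SE 0.04, adjusted p = 0.106, edgeR), from 42.8 to 59.2 CPM in ET_D7 and 37.8 to 49.3 CPM in ET_D9. Without fetus 3, whose heart library had the lowest heart muscle marker sum, IGFBP3, IGFBP4 and IGFBP5 all passed (adjusted p = 0.0406, 0.0146 and 0.0230, edgeR). The share of all genes that passed in that fit is not given here, so these calls are not read as a result about the members. IGF2 had a slope of -0.06 (SE 0.07, unadjusted p = 0.422, edgeR), and the other 4 members tested lay between -0.01 and 0.17. The median slope of the 9 members was -0.06, beside -0.01 over all genes. With the library total as scale the median over all genes moved to 0.12, and the slopes of IGF2 and IGFBP3 were then 0.09 and 0.04. On the spline, IGFBP5 was the only member with an unadjusted p under 0.05 (p = 0.0195, edgeR; adjusted p = 0.601), where 7.99% of genes had one and 0% passed after adjustment.

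Between the transfer groups no member passed in the heart, where 0.0492% of all genes did. IGFBP5 was nearest (-0.63, SE 0.15, adjusted p = 0.0659, edgeR). Without fetus 3 IGFBP5 passed (adjusted p = 0.0328, edgeR), in a fit whose share of all genes called is not given here. IGF1 followed (-1.21, SE 0.43, adjusted p = 0.125, edgeR). These 2 of 9 had an unadjusted p under 0.05, against 24.6% of all genes. DESeq2 called IGFBP5 and IGF1 (adjusted p = 0.00224 and 0.0470), out of 2166 genes (13.3%) where edgeR called 8. Only IGFBP5 had ranges that did not overlap with TMM, as 10.1% of the 16250 genes did. Its ranges met when scaled to the library total. IGF2 differed by -0.07 (adjusted p = 0.876).

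In the gonad-labelled libraries no member passed on the linear term, nor did any gene (0%), and 2 of 9 had an unadjusted p under 0.05, both with falling slopes, against 5.62% of all 17809 genes and 3.24% falling. These were IGF2 (-0.13, SE 0.05, adjusted p = 0.849, edgeR) and IGF2R (-0.12, SE 0.05, adjusted p = 0.849). IGF2 had 2437 CPM in fetus 1 and 1292 to 1753 CPM in the other 8, and IGF2R had 319 CPM in fetus 1 and 177 to 277 CPM in the others. Without fetus 1 the slopes were -0.06 and -0.09. IGF1 had the opposite sign, 0.15 (SE 0.07, adjusted p = 0.849, edgeR).

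On the spline 3 of 9 members had an unadjusted p under 0.05 in these libraries, IGFBP5 (p = 0.00270, edgeR), IGF2 (p = 0.0148) and IGFBP6 (p = 0.0294), against 12.6% of all genes, with 0% passing after adjustment. IGFBP5 was 593 CPM in fetus 1 and 315 to 375 CPM in the 8 others, and without fetus 1 its spline p was 0.603 (edgeR) and that of IGF2 0.575. Without fetus 1 the spline p of IGFBP6 was 0.00267 (adjusted p = 0.330, edgeR). Without fetus 8 IGFBP6 passed (adjusted p = 0.0253, edgeR), but the share of all genes passing in that fit is not given here. IGFBP6 was highest in fetus 7, at 64.2 CPM against 43.1 CPM in fetus 6, and its fit without fetus 7 is not given either. Its 4 ET_D7 values were 24.8 to 32.1 CPM and its 5 ET_D9 values 34.0 to 64.2 CPM, so that the groups did not overlap, which held for 1 of 9 members and 8.23% of genes. The log2 difference of ET_D9 over ET_D7 was 0.65 (SE 0.19, adjusted p = 0.122, edgeR), and DESeq2 called it (adjusted p = 0.0394) among 940 genes (5.28%) where edgeR called 63. Its slope was 0.13 per 0.1 g (SE 0.09), and -0.16 with the transfer group as a further term. IGF1 (0.50), IGF2 (-0.34) and IGF2R (-0.38) also had an unadjusted p under 0.05 between the groups, 4 members of 9 in all against 18.5% of genes, and 0 members against 0.354% of genes passed after adjustment.

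In the liver no member had a p under 0.05 along weight or between the groups, before or after adjustment. On the linear term 17.2% of 16605 genes had an unadjusted p under 0.05 and 2.23% passed after adjustment, on the spline 17.9% and 1.81%, and between the groups 17.4% and 4.14%. The slope was negative for 9 of 10 members, IGFBP2 among them at -0.005 (SE 0.09), with a median of -0.06 beside -0.01 over all genes. The share of all genes with a negative slope is not given here, so that count is not read as a result about the members. IGF1 had a slope of -0.11 (SE 0.14, adjusted p = 0.747, edgeR) and IGF2 one of -0.12 (SE 0.07, adjusted p = 0.416), and the other members lay between -0.13 and 0.16. Between the transfer groups IGF1 differed by -0.48 (adjusted p = 0.643, edgeR) and IGF2 by -0.44 (adjusted p = 0.341), and all members overlapped where 14.9% of genes did not. IGFBP1, at 180 to 305 CPM, had a slope of -0.04 (SE 0.05). Heart muscle markers summed to 66.6 to 2046 CPM in the ET_D7 livers and 53.1 to 178 CPM in the ET_D9 livers, and their part in these values was not tested.

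In maternal blood 8 members were tested among 16284 genes and none passed. On the linear term 0 of 8 had an unadjusted p under 0.05, against 9.69% of all genes, with 0% after adjustment. On the spline IGF1R (p = 0.0217, edgeR) and IGFBP4 (p = 0.00790) did, 2 of 8 against 9.77% of genes, and after adjustment none did, against 0.129%. IGFBP4 had 18.2 to 30.1 CPM beside the ET_D7 fetuses and 24.1 to 57.1 CPM beside the ET_D9 fetuses, the highest value being beside fetus 7. Its difference between the groups was 0.74 (SE 0.22, adjusted p = 0.527, edgeR), the only 1 of 8 with an unadjusted p under 0.05 against 7.60% of genes, and its slope was 0.20 (SE 0.10). Between the groups IGF1 differed by -1.92 (SE 0.94, adjusted p = 0.675, edgeR) and IGF2 by -0.20 (SE 0.47, adjusted p = 0.942), and the 5 members not yet given lay between -2.21 and 0.07. The groups overlapped for every member, as for all but 1.28% of genes, and 0% of genes were called between them. IGF1 had a slope of -0.41 (SE 0.31, adjusted p = 0.708, edgeR), IGF2 -0.11 (SE 0.18, adjusted p = 0.875) and IGF1R -0.07 (SE 0.08, adjusted p = 0.825), with the other 4 members between -0.56 and 0.01. Without the blood beside fetuses 2 and 5, where heart muscle markers were high, IGF1R and IGFBP4 still had unadjusted spline p under 0.05 (0.00921 and 0.0380, edgeR), and without the blood beside fetus 7 neither did (0.106 and 0.0804).

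**Figure D4:**
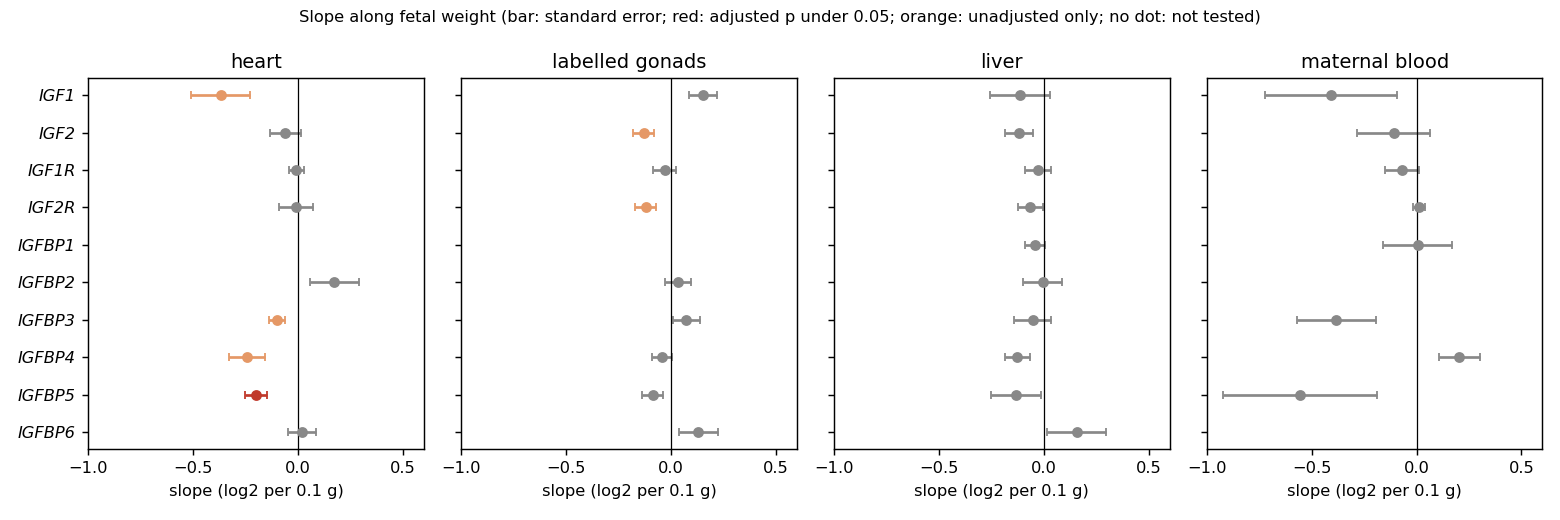
Slope of each member along fetal weight (log2 per 0.1 g, bars standard errors) in the heart, the libraries labelled gonads, the liver and maternal blood, with red for an adjusted p under 0.05, orange for an unadjusted p under 0.05 and no dot where the member was not tested. Only IGFBP5 in the heart is red (-0.20), and the heart has 3 further members in orange.

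**Figure D5:**
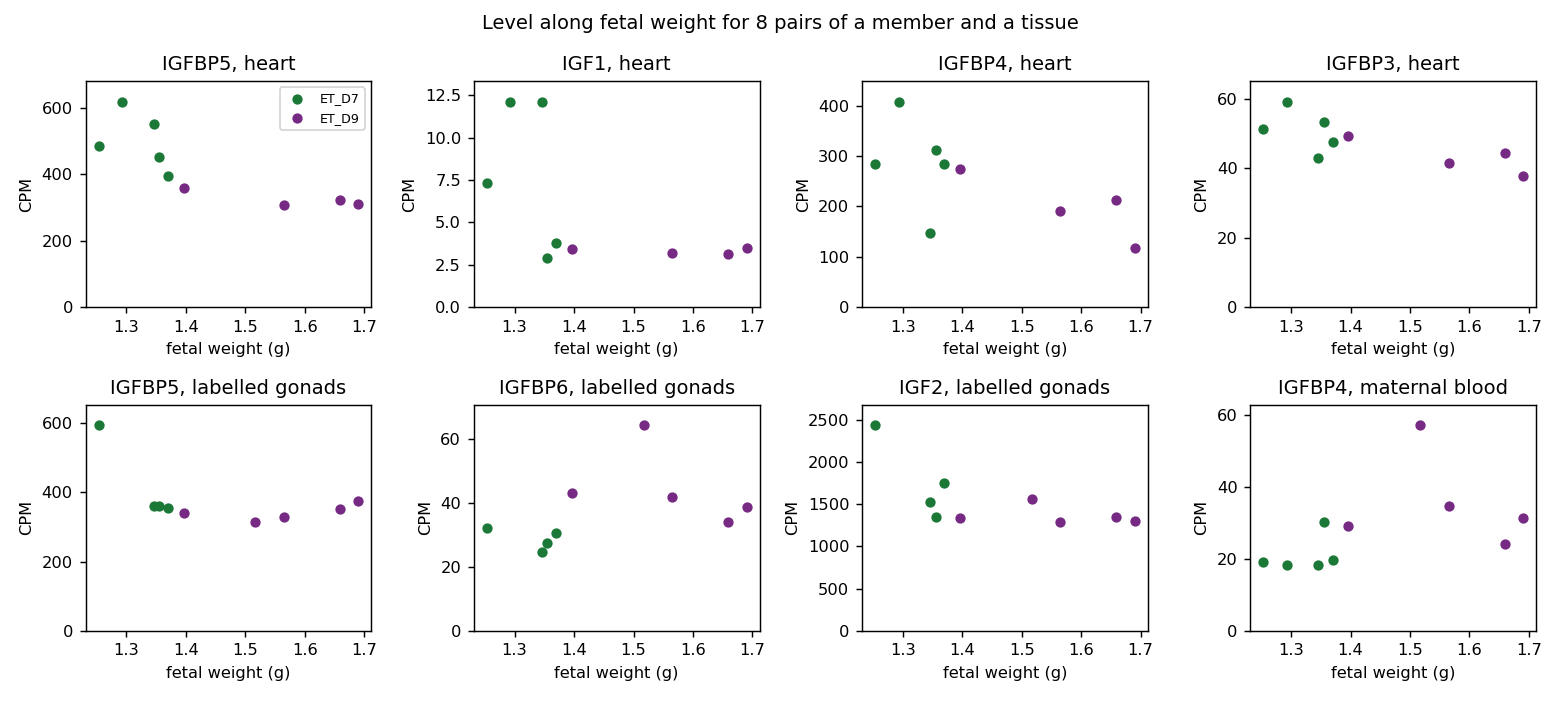
Level (CPM, axes from 0) against fetal weight (g) for 4 members in the heart, 3 in the libraries labelled gonads and IGFBP4 in maternal blood, coloured by transfer group (ET_D7 lighter, ET_D9 heavier). IGFBP5 in the heart lies between 396 and 619 CPM in ET_D7 and between 308 and 358 CPM in ET_D9, while IGFBP5 and IGF2 in the gonad-labelled libraries are set apart by fetus 1 (593 and 2437 CPM).

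Whether slopes differed between organs was tested as an interaction over 19635 genes. No member passed in any of the 3 contrasts, where 0.0357% of genes passed for heart against gonad-labelled, 8.15% for heart against liver and 5.14% for gonad-labelled against liver. IGF1 had the smallest unadjusted p (0.00954, edgeR), with heart and gonad-labelled slopes differing by -0.51 ( SE 0.18, adjusted p = 0.467, edgeR), the only member with an unadjusted p under 0.05 in that contrast against 7.42% of genes. For heart against liver that was IGFBP1 alone, which had 6 counts in the heart, against 23.1% of genes, and for gonad-labelled against liver it was none, against 16.8%. The fall of IGFBP5 in the heart was thus not shown to differ from its slopes of -0.09 in the gonad-labelled libraries and -0.13 in the liver (differences -0.10 and -0.10, adjusted p = 0.976 and 0.680, edgeR). Its gonad-labelled slope ranged from -0.13 to -0.0034 when 1 fetus was left out. Fetus 1 had 593 CPM of IGFBP5 there, against 315 to 375 CPM in the others. The interaction fits took the 26 organ libraries of 10 fetuses as independent. With the fetus as a replicate block 0, 938 and 463 of the 19635 genes passed for heart against gonad-labelled, heart against liver and gonad-labelled against liver. The members' values under that block are not given here.

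Around the 10 members, 29 other genes of the pathway were examined: regulators and proteases of the binding proteins, relatives of the members, the insulin and growth hormone receptors, signalling proteins below the receptors and imprinted growth genes. Between heart and gonad-labelled libraries 9 were called higher and 9 lower (18 of 29, against 46.6% of all genes), between heart and liver 12 and 11 (23 of 29, against 58.6%), and between gonad-labelled libraries and liver 12 and 12 (24 of 29, against 64.4%), with median log2 differences of -0.05, 0.23 and 0.04. IRS4, an adaptor below the receptors, had 38.1 to 76.1 CPM in the gonad-labelled libraries, 0.392 to 1.19 CPM in the heart and 0 to 0.262 CPM in the liver. IGFBP7, a relative of the binding proteins with low affinity for the ligands, was highest in the heart, at 155 to 245 CPM against 19.6 to 34.9 CPM and 15.9 to 23.7 CPM (heart over liver 3.32, SE 0.12, adjusted p = 7.18e-19, edgeR). DLK1, a paternally expressed imprinted gene, was highest in the liver at 562 to 1509 CPM, with 21.5 to 37.6 CPM in the heart (-5.11, SE 0.19, adjusted p = 8.60e-19).

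The stanniocalcin STC2, which inhibits PAPPA, had 1.80 to 4.05 CPM in the heart and 0 counts in all 8 livers. IGFBPL1 and the protease PAPPA2 were called higher in the liver than in the heart and the gonad-labelled libraries respectively (adjusted p = 0.000226 and 0.000339, edgeR), but their liver levels jumped between fetuses. IGFBPL1 had 87.1, 150 and 197 CPM in fetuses 3, 4 and 5, the livers with raised heart muscle markers, and at most 0.0654 CPM in the 5 others. PAPPA2 had 22.3, 3.84, 55.8 and 33.6 CPM in fetuses 3, 5, 8 and 9 and at most 0.0533 CPM in the rest. Jumps from 2 counts or fewer in some livers to 300 or more in every other were seen for 333 genes, and 0 of the 10 members were among them. The same rule found 1 gene in the heart, 1 in the gonad-labelled libraries and 2 in maternal blood. The cause was not tested.

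Along fetal weight 1 of the 28 pathway genes tested in the heart passed, the growth hormone receptor GHR, where 6.77% of all genes did. None of 28 did in the gonad-labelled libraries (0% of all genes), none of 26 in the liver (2.23%) and none of 18 in blood (0%). GHR was at a low level in the heart, 2.55, 3.36, 1.40, 3.17 and 2.18 CPM in fetuses 1 to 5 and 0.828 to 1.36 CPM in the ET_D9 hearts. Its slope was -0.40 (SE 0.10, adjusted p = 0.0495, edgeR), with DESeq2 giving -0.39 (adjusted p = 0.00965), the library total -0.25 (adjusted p = 0.144) and the transfer group as a further term -0.21 (adjusted p = 0.713). The call was lost without any single fetus other than fetus 3 (adjusted p 0.0541 to 0.358). PIK3CA, a kinase subunit below the receptors, had a slope called different between heart and liver (0.48, adjusted p = 0.0203, edgeR), where 8.15% of all genes did. Its value with the fetus as a replicate block is not given here. IRS4 was called in both contrasts with the liver, but with 0 counts in 6 of 8 livers it has no liver slope to compare, and no value is given.

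The other genes whose profile over the 26 organ libraries was most like that of each member were listed by Pearson's r of log2 CPM, as a description of points that share organs and library composition. For IGF2 they were ZYX (r = 0.983, and 0.878 after removal of the organ means) and UBALD1 (0.980 and 0.875), and for IGF1 C4BPA (0.857 and 0.730) and MFSD14B (0.847 and 0.752). For IGF1R they were BCL2 (0.886 and 0.594) and TNRC6B (0.882 and 0.608), and for IGF2R CIT (0.879 and 0.944) and BRPF1 (0.874 and 0.850). IGFBP1 was nearest to SERPINA3-7 (0.997 and 0.535) and ENTPD8 (0.997 and 0.606), IGFBP2 to DIP2C (0.978 and 0.749) and SLC10A4 (0.976 and 0.717), and IGFBP3 to GPX3 (0.968 and 0.726) and H2BC5 (0.961 and 0.648). IGFBP4 was nearest to SIRT2 (0.960 and 0.911) and ZNF358 (0.943 and 0.885), IGFBP5 to TCP11 (0.988 and 0.771) and EFNA5 (0.986 and 0.716), and IGFBP6 to AGPAT4 (0.980 and 0.569) and FLRT2 (0.979 and 0.642).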

How the data were processed

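RNA-seq of 26 fetal organ libraries and 10 maternal blood libraries was used. The authors deposited whole-number counts of reads per gene for 35092 Entrez genes, with no normalization stated. Reads had been trimmed with Trimmomatic, mapped with STAR 2.7.0b to ARS-UCD1.3 and counted with featureCounts (Subread 2.0.3), as the study's methods and the submitters' processing notes give it. Organ libraries came from a stranded mRNA kit and blood libraries from another stranded kit. Options for strand, read pairs and multi-mapping reads are not given in the sources used here, so members overlapped by another gene are uncertain. In ARS-UCD2.0 order LOC112446717 overlaps IGF1 (0 to 116 counts in heart libraries) and PGPEP1L overlaps IGF1R (at most 62 counts), while AIRN over IGF2R and MIR483 in IGF2 had 0 counts. Low counts of 1 to 20 were even numbers in 83.8% to 87.9% of cases in blood, 57.0% to 77.3% in the gonad-labelled libraries, 55.7% to 71.5% in the heart and 47.2% to 76.6% in the liver, so counting error may be understated. No sample column was left unmapped, and no libraries held identical counts. Symbols were matched for 31630 genes.

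Counts were tested with edgeR 4.0.16 (R 4.3.3), quasi-likelihood, TMM and Benjamini-Hochberg adjustment over all genes tested, with a threshold of 0.05; standard errors are the log2 value over the square root of F. Organs were compared in 1 fit over genes with at least 1 count, and weight (a slope and a spline of 3 degrees of freedom), transfer group and slope differences over genes reaching 10 counts in 4 or more libraries. The script was tested on simulated data. Libraries of the same fetus pair by animal, yet their deviations from organ means correlated weakly (median r 0.0386, 0.0231 and 0.00613 over the 3 organ pairs). All 10 members were named in the organ comparisons. Along weight and transfer group IGF1 and IGF2 were named in every tissue and other members where an unadjusted p was under 0.05. Pathway genes were named by the 6 largest called organ differences; GHR, PIK3CA and H19 were added after their values were seen. Members and gene lists were chosen with earlier results of these data known. Alternatives were other scalings (library total, DESeq2 1.42.0 size factors, TMM without the 37 mitochondrial genes), other filters, DESeq2, a replicate block, a transfer group term, and leaving out fetuses. Leaving out the livers of fetuses 3, 4 and 5 or the blood beside fetuses 2 and 5, library totals as scale, a depth term in blood and the IGFBP1 ratios with 2 counts as 1 event were added after the data were seen. No sequences and no coordinates are given because none of the files' build were used here.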

Additional observations from a re-analysis of the deposited data

Results flagged for a closer look

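Each member was checked in each tissue, 40 groups in all, for a library whose gap to its nearest neighbour was large for the group's range on the log2 CPM scale by Dixon's criterion, and 4 were found, where chance gives about 1 in 20 groups. In the gonad-labelled libraries 3 of these were the highest value of fetus 1, the lightest fetus. IGFBP5 was 593 CPM there and 375 CPM in the next library, a gap of 0.725 of the range in log2 CPM. IGFBP4 was 166 CPM against 117 CPM (0.631 in log2 CPM), and IGF2 was 2437 CPM against 1753 CPM (0.519 in log2 CPM). In maternal blood IGF2R was lowest beside fetus 7, at 94.0 CPM against 110 CPM in the next library (0.474 in log2 CPM). The cause was not tested.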

How the results depend on the processing

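Fetuses 1 to 10 gave several organs each, so the fetus was also fitted as a replicate block. This pairing ended the call of IGF2 between heart and liver (0.42, adjusted p = 0.0658, edgeR) and changed no other call of a member between organs.

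The values recomputed were tests of single members, counts of members called and mean levels. A test stayed the same if its direction and call held. A count stayed the same if it changed by no more than a set factor, and a level if its mean moved by no more than its SD. Under settings other than leaving out a fetus, 570 stayed the same, 14 lost a call, 9 gained a call, 62 counts or levels moved and 21 turned in sign. Of those without 1 fetus the numbers were 799, 15, 5, 43 and 6. The cause was not tested. Scaled to the library total, heart over gonad-labelled turned to -0.75 for IGF1, -0.93 for IGF1R, -0.25 for IGFBP1, -0.040 for IGFBP4 and -0.91 for IGFBP5, and gonad-labelled over liver to 0.41 for IGF1R, 0.89 for IGF2R and 0.87 for IGFBP4. The heart slopes of IGF2 and IGFBP3 became 0.086 and 0.042, where the median over all genes went to 0.12, and the group differences in the heart 0.28 and 0.094, with -0.021 for IGF1R in blood. With the transfer group as a further term the slopes of IGFBP6 in the gonad-labelled libraries (-0.16), IGF1 and IGF2 in the liver (0.37 and 0.083) and IGF1 and IGFBP4 in blood (0.68 and -0.0718) turned, and without fetuses 9 and 10 those of IGF1 in the liver (0.040) and of IGF2 and IGF1R in blood (0.18 and 0.15).

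A log2 difference above 1 left 3 members for heart against gonad-labelled and 5 for heart against liver. Members called along weight in the heart were 0 with the library total, without fetuses 9 and 10 and with the transfer group, where 0 genes were called. They were also 0 without the mitochondrial genes (950 of 16233 genes called) and without the filter (706 of 22766), and 2 with DESeq2 (18.9% of all genes). Unadjusted spline counts became 0 in the heart with the library total (931 of 16250 genes) or without fetuses 9 and 10 (507 of 15745). They became 1 in the liver with size factors (3255 of 16605 genes) and 1 in blood without fetuses 9 and 10 (906 of 15872). Between the groups DESeq2 called 2 members in the heart (13.3% of all genes) and 1 in the gonad-labelled libraries (5.28%).

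Leaving out 1 fetus at a time gave 0 to 3 members called on the heart slope (3 without fetus 3). Unadjusted spline counts were 0 to 3 in the heart, 2 to 4 in the gonad-labelled libraries, 0 to 1 in the liver and 0 to 2 in blood (0 without fetus 7). Adjusted counts were 0 to 1 on the gonad-labelled spline (1 without fetus 8) and 0 to 1 between the groups in the heart (1 without fetus 3). The shares of all genes called in these refits are not given here, so the counts are not read as results about the members. The heart over gonad-labelled difference was -0.047 to 0.45 for IGF1 and -0.65 to 1.39 for IGFBP1, the heart slope of IGF2 -0.11 to 0.0062, its group difference in the heart -0.20 to 0.067, and that of IGF1R in blood -0.20 to 0.16.

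Fetal weight and transfer group cannot be told apart, and each tissue has 8 to 10 libraries. Members with few counts in blood, IGF1 among them, are limited by depth as well.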
